A study of Mus musculus with 2 samples.

Results

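Gm23388, Gm24187, Gm23935, Gm24245 and Gm24270 are 5 of the 2201 GENCODE M21 mouse genes annotated as miRNA, and each is a short entry of 57 nt without a Mir symbol. They were chosen by the measured ratio of the deposited tables, a log2 ratio at or below -1 among reads of 24 to 32 nt, where Gm23388 had -1.48, Gm24187 -1.09 and the other 3 -1.07. That ratio is therefore given here as a description, with no test. Reads of 18 to 32 nt that match an entry exactly on its own strand were taken as its reads. The series sequenced small RNA of testes at 23 days post partum from C57BL/6 mice that were Stambp-ps1-/- or Stambp-ps1+/-. Stambp encodes a deubiquitinase and Stambp-ps1 is a processed copy of it. The labels used here do not say how the allele was made or how many animals gave RNA. The record lists 2 tables of read sequences and counts, both under the Stambp-ps1-/- sample, with KO in one table's name and het in the other's. Each is called by that word, KO-named or het-named, and stands for no genotype here.

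MicroRNAs are cut from hairpin precursors by the enzymes Drosha and Dicer. Targets are recognised through the seed, the bases that follow the first base of the miRNA. Most reads of a typical miRNA start at the same base and have nearly the same length, though not for every miRNA. Among 319 entries with a Mir symbol and at least 200 reads, 279 had at least 50% of reads at 1 start. In meiotic testis, piRNAs form the other large class, are longer and mostly begin with U. Fragments of ribosomal RNA, the most abundant RNA of the cell, also enter small RNA libraries and start at many places.

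The tables held 54384974 reads (KO-named) and 62773871 reads (het-named), each from 1 library, so no test between the tables was possible. Intervals are exact 95% binomial intervals that cover counting error only, because reads were amplified without molecular identifiers and are no independent molecules. Antisense reads of 24 to 32 nt over Gm18009, which RefSeq names Stambp-ps1, numbered 24 (KO-named) and 2700 (het-named). The miRNAs listed for testis germ cells, 8 of 8 with reads in each table, summed to 24580 RPM (reads per 1000000 reads) in the KO-named table against 22480 in the het-named one. The liver miRNA Mir122 had 0 reads in both, where 3 reads would be 0.0552 RPM (KO-named) and 0.0478 RPM (het-named). The listed miRNAs of somatic testis cells, 3 of 3 with reads, summed to 28070 RPM (KO-named) and 22950 RPM (het-named), and those of blood, 3 of 3, to 66.0 RPM (KO-named) and 44.6 RPM (het-named). The neural ones, 2 of 2, summed to 27.8 RPM (KO-named) and 20.65 RPM (het-named), and those of muscle, 2 of 3, to 21.8 RPM (KO-named) and 13.2 RPM (het-named). The sums of all 5 lists with reads were thus higher in the KO-named table, but not every listed miRNA was. In the germ cell list Mir871 had 7620 RPM (KO-named) and 8011 RPM (het-named), while Mir470 had 6792 and 6747 RPM. Most of the somatic sum was Mir10b, 19720 RPM (KO-named) and 15740 RPM (het-named), and Mir143, 8246 and 7101 RPM. Entries with a Mir symbol and at least 200 reads also leaned higher in the KO-named table, whatever their tissue. Their median log2 ratio was 0.22 over 319 entries, of which 96 were below 0. Whether any list rose beyond this common lean was not tested, nor was the part of the lists in the results. Short reads made up less of the KO-named table, with 4.08% of its reads of 18 to 20 nt against 7.83% in the het-named one, and in bulk tissue fewer cells of a type and less RNA per cell cannot be told apart.

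The sequences of the 5 entries are shown because they decide how the reads can be assigned. Gm23935, Gm24245 and Gm24270 were identical over all 57 bases. Capitals mark the bases in which the other two entries differ from this shared sequence.

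Gm23935, Gm24245, Gm24270: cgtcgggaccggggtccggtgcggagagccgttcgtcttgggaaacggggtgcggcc
Gm24187: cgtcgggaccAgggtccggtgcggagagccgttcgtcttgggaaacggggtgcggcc
Gm23388: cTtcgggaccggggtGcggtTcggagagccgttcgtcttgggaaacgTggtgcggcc

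Counted from 1 at the 5′ end of the entry, with the shared base given first, Gm24187 carried 1 substitution, G11A, and was 98.2% identical to the shared sequence. Gm23388 carried 4 substitutions, G2T, C16G, G21T and G48T, and was 93.0% identical. The shared sequence was 73.7% G and C.

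The entries lie on 5 chromosomes of GRCm38. Gm23388 (ENSMUSG00000089213.1) is at chr8:85112012-85112068 on the minus strand, in an intron of the zinc finger gene Zfp791. Gm23935 (ENSMUSG00000076258.1) is at chr16:11144125-11144181 on the plus strand, in an intron of Zc3h7a but on the opposite strand to it. Gm24270 (ENSMUSG00000076281.1) is at chr9:56223715-56223771 on the minus strand, in an intron of the kinase gene Peak1. Gm24187 (ENSMUSG00000088609.1), at chr13:9834469-9834525 on the minus strand, and Gm24245 (ENSMUSG00000087943.1), at chr4:139338304-139338360 on the plus strand, overlap no other annotated gene. RefSeq's table of 2743 hairpin and mature miRNA sequences (GRCm38.p6) held none under these symbols and none that shares 18 bases with an entry.

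All 5 entries had the lower level in the KO-named table. Of them, 3 had the same counts because they are the same sequence. Gm23935, Gm24245 and Gm24270 each had 22454 reads in the KO-named table against 63662 in the het-named one, or 413 RPM (KO-named, 407 to 418) against 1014 RPM (het-named, 1006 to 1022). The log2 ratio of KO-named over het-named was -1.30. Gm24187 had 20889 KO-named and 59887 het-named reads, 384 RPM (379 to 389) in the KO-named table against 954 RPM (946 to 962) in the het-named one, with a log2 ratio of -1.31. Gm23388 had the fewest, 8921 KO-named and 28175 het-named reads, or 164 RPM (KO-named, 161 to 168) and 449 RPM (het-named, 444 to 454), with a log2 ratio of -1.45. With each read counted once, the 5 entries together had 22465 reads in the KO-named table against 63713 in the het-named one, a ratio of 0.407 (0.401 to 0.413) and a log2 ratio of -1.30. The sum was thus hardly above the count of any of the 3 identical entries alone. No antisense read was found for any of the 5 entries in either table.

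**Figure D1:**
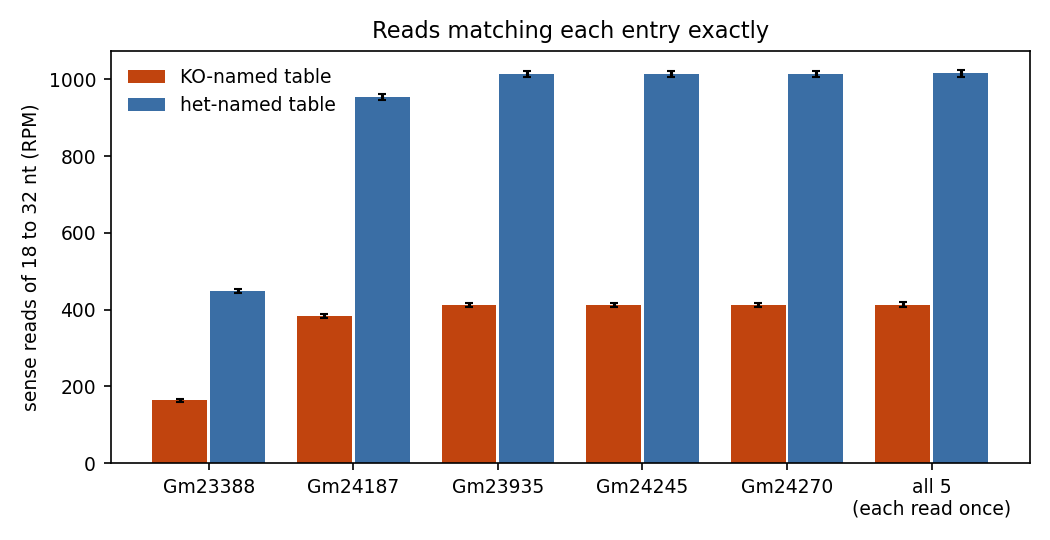
Sense reads of 18 to 32 nt (RPM) that match each of the 5 entries exactly, and of all 5 with each read counted once, in the KO-named table and the het-named table. Error bars are exact 95% binomial intervals; the bars of Gm23935, Gm24245 and Gm24270 are the same reads at 413 RPM (KO-named) and 1014 RPM (het-named).

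Nearly all reads of one entry were also reads of another. Of the reads of the 5 entries, 43.0% in both tables together matched all 5, 50.8% matched Gm24187 and the 3 identical entries, and 6.20% matched the 3 identical entries alone. Those that matched Gm23388 alone were 11 reads in the KO-named table against 48 in the het-named one, 0.159% of its reads. Those that matched Gm24187 alone were 0 KO-named and 3 het-named reads. Gm23935, Gm24245 and Gm24270 had no read of their own, and their counts cannot be told apart.

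The bases in which the entries differ showed which version the reads carry. Over base 11, reads with the Gm24187 base of G11A numbered 0 in the KO-named table against 3 in the het-named one, while the shared base was carried by 1565 KO-named and 3778 het-named reads. Reads with neither of these bases there, but otherwise the shared sequence, numbered 10 (KO-named) and 27 (het-named). The reads counted for Gm24187 therefore nearly all lay clear of the base that sets it apart. For Gm23388, the member base of G2T was carried by 0 KO-named and 1 het-named reads, and the shared base by 229 KO-named and 356 het-named reads. That of C16G was carried by 2 KO-named and 1 het-named reads, and its shared base by 5224 (KO-named) and 13124 (het-named). That of G21T was carried by 28 KO-named and 65 het-named reads, and its shared base by 11976 (KO-named) and 31306 (het-named), with 17 KO-named and 45 het-named reads that held neither base. That of G48T was carried by 1 KO-named and 10 het-named reads, and its shared base by 1815 (KO-named) and 4837 (het-named). Reads with a member base were counted in the shared sequence with only that base changed, so they need not match Gm23388. Over base 21, reads that match Gm23388 itself numbered 10 (KO-named) and 39 (het-named). At each of the 5 differing bases the shared version thus held nearly all reads, in both tables.

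Among all other GENCODE M21 transcripts, an exact sense match was found for 24 of the sequences, all in Gm25911, a 56-nt entry also annotated as miRNA (chr1:167340369-167340424, minus strand). They held 83 reads in the KO-named table against 348 in the het-named one, 0.5% of the reads of the 5 entries, and made up 95.1% of the reads of Gm25911. No annotated transcript outside the 5 entries reached the share of 10% set for naming, and Gm25911 is named after its values were seen. No read was shared with CT010467.1, annotated as rRNA, with the noncoding RNAs Gm42418 and AY036118, or with Mir6236 and Mir6240. The reads of CT010467.1 and AY036118 were nearly all antisense, so sense matches alone say little of these. Exact antisense matches to other transcripts were found for 0 of the sequences as well. The full ribosomal RNA precursor was not among these transcripts.

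The start pattern was not that of a miRNA. Reads of the 5 entries together began at all 40 bases at which a read of 18 nt can start, and 20 of these each held at least 1% of the reads. The most frequent start was base 27 in both tables, with 12.3% of the reads in the KO-named table (interval 11.8 to 12.7) against 12.4% in the het-named one (12.2 to 12.7). The next in the KO-named table was base 18, with 10.3% of its reads and 6.75% of the het-named reads. In the het-named table it was base 20, with 8.05%, against 6.73% in the KO-named table. Each of the 13 starts from base 15 to base 27 held at least 1.97% of KO-named and at least 2.51% of het-named reads, so reads formed a broad hump with no gap. The ends were spread as well, and the most frequent one, base 46, held 15.2% of the reads in the KO-named table against 15.4% in the het-named one. For Gm23388 the main start, again base 27, held 27.1% (KO-named) and 25.1% (het-named), and its reads lay nearly all in the part it shares with the other entries.

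**Figure D2:**
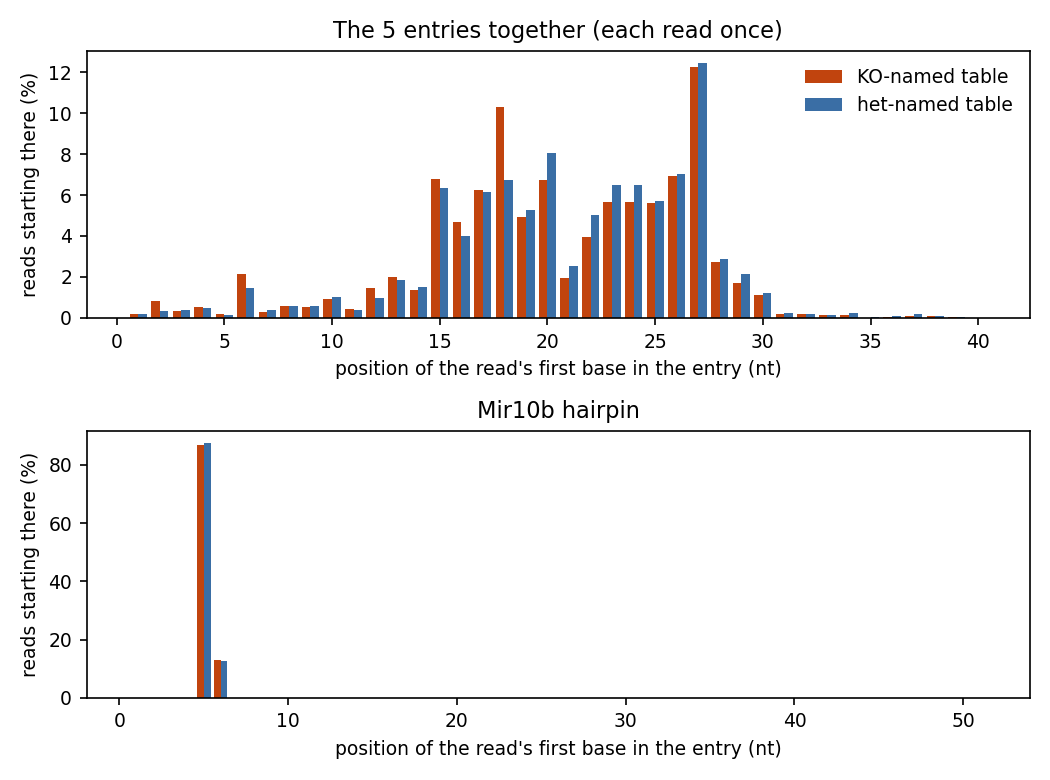
Share of reads (%) by the position of their first base in the entry (nt), for the 5 entries together (top) and for the Mir10b hairpin (bottom), in both tables (KO-named and het-named). The 5 entries have reads at every possible start with a peak of 12.3% (KO-named) and 12.4% (het-named) at base 27, and Mir10b has 86.8% (KO-named) and 87.4% (het-named) at base 5.

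The most frequent reads of the 5 entries are shown with their counts, since they overlap one another and differ in start, end or both. None is printed with a seed, because no start held most reads.

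Bases 27 to 45: agccgttcgtcttgggaaa
Bases 27 to 44: agccgttcgtcttgggaa
Bases 15 to 38: tccggtgcggagagccgttcgtct
Bases 17 to 38: cggtgcggagagccgttcgtct

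The first had 975 reads in the KO-named table against 2584 in the het-named one, and was 4.13% of all reads of the 5 entries. The second had 639 KO-named and 2510 het-named reads. The third had 701 KO-named and 2386 het-named reads, and the fourth 492 (KO-named) and 1610 (het-named). All 4 were lower in the KO-named table, with log2 ratios of -1.20, -1.77, -1.56 and -1.50 in the order shown. Of the 495 different sequences of 18 to 32 nt that the shared entry can give, 489 were present in the tables, or 98.8%.

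The 5 miRNAs with most reads, measured the same way, had 1 or 2 starts with at least 1% of their reads. Mir10b, a miRNA of the Hox gene cluster, had 87.1% of its reads at 1 base and 9.09% of its possible sequences, and Mir22, a broadly expressed miRNA, had 99.7% and 2.82%. Mir143 (99.2%), Mir470 (98.4%) and Mir871 (88.3%) had the same form. Their share of reads of 20 to 24 nt was 95.6 to 99.9%. The mature sequences of Mir10b and Mir22 from RefSeq (GRCm38.p6) are given for contrast, with the seed, bases 2 to 8, in capitals.

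mmu-miR-10b-5p: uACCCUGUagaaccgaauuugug
mmu-miR-22-3p: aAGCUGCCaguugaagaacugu

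Reads with the first base of mmu-miR-10b-5p numbered 931115 in the KO-named table against 863471 in the het-named one, and reads with that of mmu-miR-22-3p 495720 (KO-named) and 366058 (het-named).

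A miRNA-like pattern was taken as at least 50% of reads at 1 start and at least 50% of reads of 20 to 24 nt, among entries with at least 200 reads in the tables together. None of the 5 entries met it, against 59.2% of all 552 entries annotated as miRNA, 83.7% of the 319 with a Mir symbol and 26.3% of the 228 others. The share of 20 to 24 nt among reads of the 5 entries was 47.1% in the KO-named table (46.45 to 47.8) against 45.6% in the het-named one (45.2 to 46.0). Their main start held 12.4% (Gm23935, Gm24245 and Gm24270), 13.2% (Gm24187) and 25.6% (Gm23388) of reads in both tables together, where the median of entries with a Mir symbol was 88.4%. The median of the 228 other entries without a Mir symbol was 29.7%, and their median share of 20 to 24 nt was 33.9%. Gm23388 was thus not unusual among those. Of the 547 other entries annotated as miRNA, 65 had a lower share at the main start than Gm23388. Only 2 had a lower share than the 3 identical entries, and 1 of them was Mir6236 with 9.15%.

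**Figure D3:**
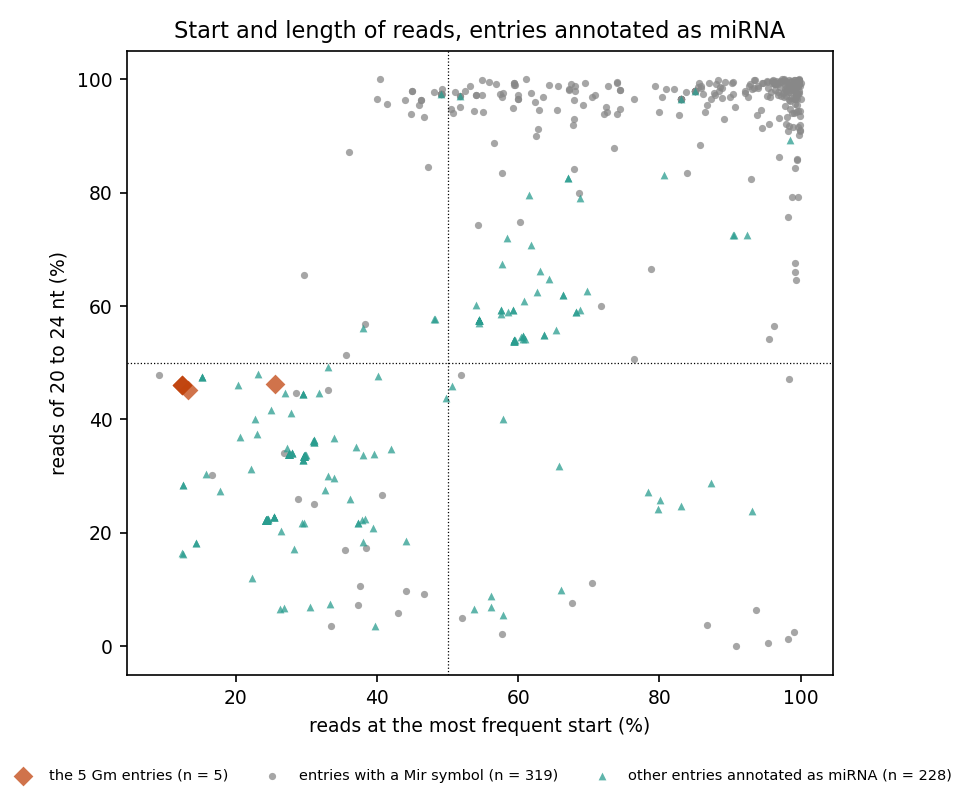
Share of reads at the most frequent start (%, x axis) and of reads of 20 to 24 nt (%, y axis), both tables summed, for the 552 entries annotated as miRNA with at least 200 reads. Dotted lines mark 50%. The 5 Gm entries (diamonds) lie at 12.4 to 25.6% and 45.3 to 46.2%, outside the upper right field that holds 83.7% of entries with a Mir symbol.

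G was the most frequent first base, with 47.0% (46.4 to 47.7) of the reads in the KO-named table and 44.7% (44.35 to 45.1) in the het-named one, and 45% of the possible starts of the shared entry are G. U began 14.4% (KO-named, 13.9 to 14.8) and 15.3% (het-named, 15.05 to 15.6), and 20% of the possible starts are U. A began 18.4% (KO-named) and 18.7% (het-named), above the 7.5% of possible starts that are A, and base 27 is one of them. The first U that marks most piRNAs was thus in the minority. The shared sequence was predicted by RNAfold to fold with 2 hairpin loops and an energy of -22.5 kcal/mol, while each of the 5 Mir hairpins above was predicted to have 1 loop. Gm24187 (-19.8 kcal/mol) and Gm23388 (-19.9 kcal/mol) also had 2 loops. Per base the shared sequence had -0.395 kcal/mol, within the hairpins' range of -0.586 (Mir143) to -0.359 (Mir10b). Its paired bases, 63.2%, also lay within their range of 61.3% (Mir470) to 79.4% (Mir10b).

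Lengths were also spread. The most frequent length was 19 nt in both tables, with 13.0% of the reads in the KO-named table against 15.4% in the het-named one, and the median was 22 nt in both. Reads of 24 to 32 nt made up 40.6% (KO-named) and 34.8% (het-named) of the reads of the 5 entries. Gm23388 had shorter reads, with a median of 20 nt in the KO-named and 19 nt in the het-named table, and 9.46% (KO-named) and 9.67% (het-named) of its reads had 24 to 32 nt. An exact match lets only short reads lie clear of the differing bases of Gm23388.

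Reads of the 5 entries were lower in the KO-named table at every length, and most so among the shortest. At 18 nt there were 2154 reads in the KO-named table against 9062 in the het-named one, a log2 ratio of -1.87 (-1.93 to -1.80). At 22 nt there were 1934 KO-named and 5174 het-named reads (-1.21, -1.29 to -1.14), and at 32 nt 403 KO-named and 882 het-named reads (-0.92, -1.10 to -0.75). All reads of the tables leaned the same way at the short end, with log2 ratios of -1.47 at 18 nt, 0.08 at 22 nt and 0.06 at 32 nt. The 5 entries were thus 0.40 lower than all reads at 18 nt on the log2 scale, 1.29 lower at 22 nt and 0.98 lower at 32 nt. Gm42418, which RefSeq lists as a ribosomal RNA pseudogene, had -1.70 at 18 nt, -1.26 at 22 nt and -1.26 at 32 nt. The part of library size selection or RNA quality in this was not tested.

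**Figure D4:**
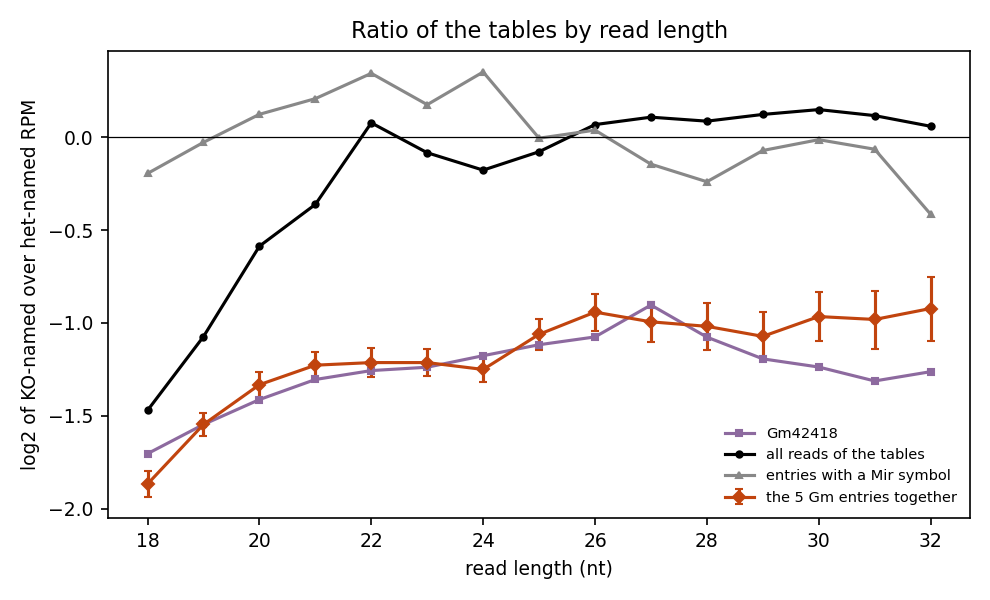
Log2 ratio of KO-named over het-named RPM (y axis) by read length in nt (x axis) for the 5 Gm entries together with 95% intervals, Gm42418, all reads of the tables and entries with a Mir symbol. The 5 entries run from -1.87 at 18 nt to -0.92 at 32 nt and stay below all reads, and below the Mir entries, at each length. Lengths of 24 to 32 nt are those that chose the members.

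The lower level was not confined to a single part of the sequence. Of the 40 starts, 29 had at least 200 reads in the tables together. All 29 were below 0 and 25 were at or below -1, with a median log2 ratio of -1.34. The lowest was base 7, with 60 KO-named and 234 het-named reads (-1.75). The highest was base 2, with 190 KO-named and 226 het-named reads (-0.04). The main start, base 27, had 2753 reads in the KO-named table against 7913 in the het-named one (-1.32), or 50.6 RPM (KO-named) and 126 RPM (het-named). The counts at all starts include the longer reads whose ratio chose the members. That most starts were lower was thus partly set by that choice. Whether the starts of the shorter reads alone were all lower was not tested.

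Among 1145 short entries of small RNA types with at least 200 sense reads, 4.1% were at or below -1 in log2 ratio, and among the 552 annotated as miRNA 4.71% were. All 5 Gm entries were, which the choice of members had fixed. The median over all short entries was -0.21. It was 0.22 over the entries with a Mir symbol, of which 4 of 319 were at or below -1, and -0.22 over the other entries annotated as miRNA, of which 17 of 228 were. Ribosomal RNA entries had a median of -0.41, with 96 of 96 below 0 and 10 at or below -1. Around the limit of -1 stood the 5S ribosomal entry n-R5s215 (95 KO-named and 220 het-named reads) just inside and the small nucleolar RNA Snord67 (-0.97, 103 KO-named and 233 het-named reads) just outside, both chosen after their values were seen. Entries beside the 5 in the order of ratios included Mir6240 (-1.35, 7084 KO-named and 20872 het-named reads), Mir879 (-1.28, 68 KO-named and 192 het-named reads) and Mir6236 (-1.25, 22089 KO-named and 60571 het-named reads). Mir879 differed from the 5 entries in its reads, with 97.7% at its main start, and Mir6240 had 26.8%. Sense reads of Gm42418 lay at the same ratio, 100865 in the KO-named table against 277340 in the het-named one, or 1855 RPM (KO-named) and 4418 RPM (het-named) (-1.25).

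The reads did not stop at the borders of the entries. Reads that run past the 5′ border with at least 18 bases inside the shared entry numbered 3308 in the KO-named table against 7046 in the het-named one, where 39 KO-named and 130 het-named reads begin at base 1. At the 3′ border 234 KO-named and 817 het-named reads ran past the last base, where 59 (KO-named) and 246 (het-named) end on it. At both borders the reads that run past are summed over many positions, while the others are counted at a single base. The most frequent read over each border is shown, with the bases of the entry in capitals.

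5′ border: cgccgggCGTCGGGACCGGGGTCCGG
3′ border: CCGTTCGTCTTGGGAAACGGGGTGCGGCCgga

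The first had 306 reads in the KO-named table against 801 in the het-named one, and the second had 45 (KO-named) and 131 (het-named). The annotated borders of 57 nt were thus not borders of the reads.

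Overlapping reads were joined outward from the shared entry, base by base, with an overlap of 20 nt, a step chosen after the border reads were seen. The joined sequence had 535 bases, 312 before the entry and 166 after it. The lowest step rested on 104 reads, and the lowest agreement was 72.2% against a limit of 70%. Coverage by reads follows from the joining, and every base had reads in both tables. Coverage over the entry had a median of 181 RPM in the KO-named table against 410 RPM in the het-named one. It reached higher outside the entry, up to 1723 RPM (KO-named) and 3967 RPM (het-named) before it and 2877 RPM (KO-named) and 6998 RPM (het-named) after it. All 535 bases had the lower coverage in the KO-named table, and the median log2 ratio was -1.26 inside the entry, -1.18 before it and -1.22 after it. All reads within the joined sequence numbered 490993 (KO-named) and 1345024 (het-named), or 9028 RPM (KO-named) and 21430 RPM (het-named) (log2 -1.25). The entry thus covers 57 of 535 bases with about the same ratio. With an overlap of 24 nt the joined sequence had 188 bases and did not reach the Lars2 stretch described next.

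**Figure D5:**
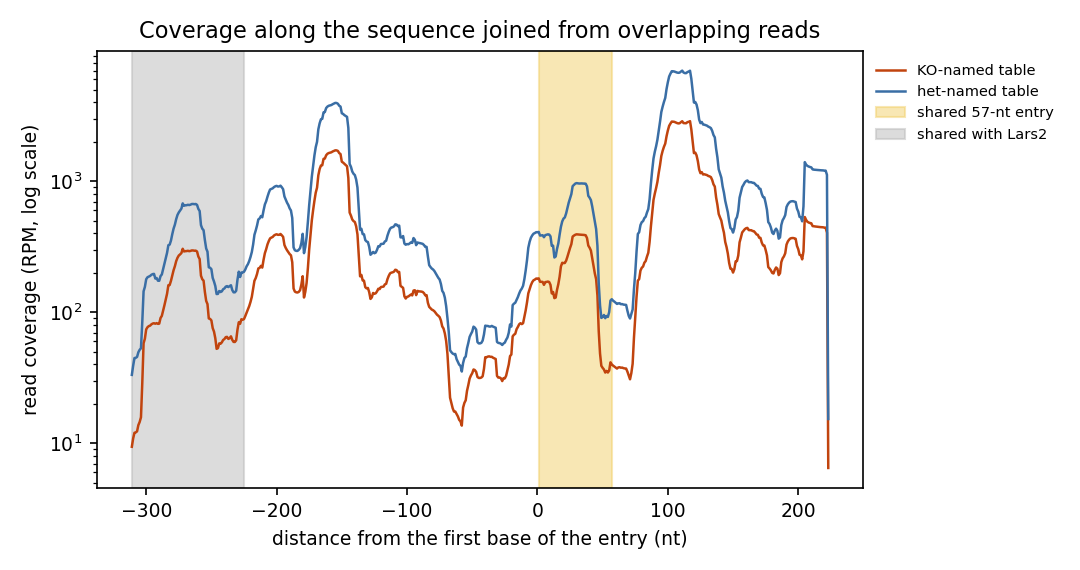
Coverage by reads of 18 to 32 nt (RPM, log scale) against the distance from the first base of the shared entry (nt), in both tables (KO-named and het-named). The 57-nt entry and the 87 bases shared with Lars2 are shaded. The KO-named line lies below the het-named line at all 535 bases. Over the entry (medians 181 RPM KO-named and 410 RPM het-named) coverage forms a hump that runs across both borders. It is lower on both sides, with 13.6 RPM (KO-named) and 35.3 RPM (het-named) at -58 and 30.8 and 89.6 RPM at 71.

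The joined sequence was placed by its matches to annotated transcripts. Its first 87 bases matched Lars2, the mitochondrial leucyl-tRNA synthetase gene, in sense, and no transcript other than the 5 entries matched a run of 25 bases elsewhere in it. Reads within these 87 bases numbered 23182 in the KO-named table against 62242 in the het-named one (log2 -1.22). Within them lay the motif TACGAGAGG, once and 233 bases before the entry, which 0.297% of 141767 GENCODE transcripts hold on either strand. As textbook background, these letters are part of the sarcin-ricin loop, a conserved loop of the large ribosomal RNA. The full ribosomal RNA precursor was not among the transcripts used here, so the reads were not matched to it.

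Gm24245 has an annotated neighbour that could be set beside the joined sequence. Gm25732, a 60-nt entry annotated as miRNA (chr4:139338206-139338265, plus strand), ends 38 bases before Gm24245. It aligned with the joined sequence without gaps at 55 of 60 bases, and is shown with the 5 differing bases in capitals.

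Gm25732: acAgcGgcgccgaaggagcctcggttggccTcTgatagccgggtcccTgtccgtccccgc

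In the joined sequence the matching stretch ended 54 bases before the entry and not 38. Reads over a differing base that carried the Gm25732 letters numbered 2 in the KO-named table against 2 in the het-named one, while 7209 KO-named and 18368 het-named reads carried the letters of the joined sequence. Joining took the base held by at least 70% of reads at each step. That most reads carry its letters was thus set by the joining and is no test between the sequences. The reads of Gm25732, 601 KO-named and 3946 het-named (log2 -2.51), were to 99.9% shared with the joined sequence. The joined sequence extends the sequence that Gm23935, Gm24245 and Gm24270 share, so its reads are not placed at any one of these loci. Gm25732 was chosen after its values were seen, and the genome around the other 4 entries was not used here.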

How the data were processed

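Total RNA of testes was run on a 15% denaturing gel, 15 to 40 nt were cut out and TruSeq Small RNA libraries were made from 20 µg, per the labels' protocols. The deposited tables hold raw read counts of each distinct sequence, with no scaling, as their whole numbers show. How adapters were removed and lengths filtered is not given in the sources used here. Both tables hold reads of 18 to 32 nt, so longer fragments are not seen. Each read was matched with 0 mismatches to GENCODE M21 transcripts (GRCm38), and every entry it matched was credited with the full count. Counts and shares of entries thus include copies that hold the same reads. RPM are reads per 1000000 reads of the table, and log2 ratios had 0.5 reads added to each count. Short entries were transcripts of at most 400 nt of 10 small RNA types. Joined reads used sequences with at least 3 reads, at least 20 reads per step and 70% agreement. Counting was tested on simulated reads. Tools were Python 3.11.15, numpy 2.4.6, scipy 1.17.1, matplotlib 3.10.9 and RNAfold 2.7.2.

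The members and lists were chosen with earlier results of these data known. The rule for named genes took the 5 members, the 5 Mir entries with most reads, transcripts that share at least 10% of a member's reads, the 5 entries on each side of the members by ratio, Gm18009, Mir6236, Mir6240, CT010467.1, Gm42418 and AY036118. Of the entries beside the members, those with Mir symbols are named.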

Additional observations from a re-analysis of the deposited data

How the results depend on the processing

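The log2 ratio of the 5 entries together, -1.30, was -1.38 when scaled to reads of 24 to 32 nt, -1.54 when scaled to reads of Mir entries and -1.09 when scaled to the median short entry. It was -1.43 for reads of 18 to 23 nt and -1.07 for reads of 24 to 32 nt. With distinct sequences in place of reads it was -0.030. Of the 495 sequences the shared entry can give, 489 were present in the tables together, so this count had little room to follow read levels. Adding 5 reads, leaving out sequences under 5 reads, allowing 1 mismatch or leaving out reads of other transcripts gave -1.30 to -1.29. The median short entry had -0.21, and scaling to Mir entries moved every ratio by -0.25. Under the 3 other scalings Gm23388 had -1.70 to -1.24, Gm24187 -1.56 to -1.10 and the 3 identical entries, which are the same reads, -1.54 to -1.09. The ratios of 24 to 32 nt chose the members and say nothing of stability. The start pattern was met by 0 of the 5 entries under each of the 5 other settings. The share at the main start, 12.4%, was 4.14% of distinct sequences, 10.1% of reads of 20 to 24 nt and 15.0% of reads of 24 to 32 nt. Reads shared with other annotated transcripts numbered 431 with an exact match and 9907 with up to 1 mismatch.

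Short entries past 1 in size numbered 48 of 1145 tested, with 47 lower and 1 higher. They were 162 of 1585 (157 lower, 5 higher) with at least 50 reads and 20 of 640 (20 lower, 0 higher) with a higher read minimum. They were 80 of 1145 (80 lower, 0 higher) when scaled to Mir entries and 12 of 760 (10 lower, 2 higher) for reads of 24 to 32 nt, the class that chose the members. The joined sequence had 536 bases with an overlap of 18 nt, but 188 with 24 nt, and did not reach Lars2 then. Both overlaps were chosen after seeing the data. No paired analysis was possible because each table is 1 library. At 1 library a table, counting error does not measure variation between animals. Depth limits the smallest levels, since 3 reads are 0.0552 RPM (KO-named) and 0.0478 RPM (het-named).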
